A study of Mus musculus with 4 samples.

Results

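The 10 genes described here, Oat, Parp3, Slc16a1, Acot7, Mgst1, Ndrg2, Tst, Fcgrt, Zfp36l1 and Lmo4, belong to the set known as the disallowed genes of the pancreatic beta cell. They were chosen by name and make up 10 of the 19074 genes counted in each library. Disallowed genes are active in most tissues but are kept low in mature beta cells, in part by repression that builds up after birth. The best known of them, Slc16a1, encodes a carrier for lactate and pyruvate, and its absence from beta cells keeps circulating pyruvate from triggering insulin release. A rise of such genes is commonly read in this field as a sign of altered beta cell identity.

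RNA of single cells from pancreatic islets of C57BL/6 mice was counted by the droplet-based 3′ method of 10x Genomics, which tags every captured molecule with its own short code, or UMI, so that amplified copies count only as 1. The 2 libraries labelled wild type came from mice with floxed Sel1L alleles and, by their name, no Cre. The 2 libraries labelled Sel1L knockout came from mice with the same floxed alleles and a deletion driven from Ins1, an insulin gene that is active in beta cells. SEL1L is the adaptor of the HRD1 ubiquitin ligase complex, which clears misfolded proteins from the endoplasmic reticulum. Mice of all 4 libraries were 7 weeks old by the sample labels and 5 weeks old by the series text. Islets recovered overnight in RPMI medium, labelled 11 mM, before dissociation with trypsin. No library held Cre without floxed alleles, so an effect of Cre and one of the deletion cannot be told apart. The labels do not say that libraries of a genotype came from separate animals, and p-values then measure the spread between these libraries, which may be technical.

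Cells were classed by the share of their UMIs that fell on hormone genes. Beta cells had at least 10% on Ins1 and Ins2 together, alpha cells at least 3% on Gcg and delta cells at least 3% on Sst, the last pair with insulin under 5%. Cells rich in Ppy, endothelial-like, mesenchymal-like and macrophage-like cells served as further comparisons, and cells that held 4 or more markers of such a class were left out of the endocrine classes. Also left out were beta cells with at least 3% on Gcg or Sst and cells with at least 3% on both Gcg and Sst. Ppy was not used in these exclusions: Ppy-rich cells were those with at least 3% on Ppy and less on Gcg and Sst, while beta, alpha and delta cells kept their names whatever their Ppy. In each library between 1380 and 3704 beta cells, 326 and 1113 alpha cells and 229 and 531 delta cells remained. Libraries held 99156230 to 228515309 UMIs, and any 2 libraries shared 1 to 9 cell barcodes. The defining markers bore out the beta, alpha and delta names: all 9, 6 and 4 markers were detected, and Ins2 and Ins1, Gcg, and Sst led the genes of these classes. Beta cells of the knockout differed in composition: insulin took 40.8% and 44.5% of their UMIs, against 67.6% and 68.2% in wild type beta cells. Median mitochondrial shares were also higher, at 2.02% and 2.12% of UMIs in all wild type cells and 3.63% and 3.67% in all knockout cells.

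In wild type islets most of the 10 genes were lower in beta cells than in the other cell classes, and the size of the gap depended on the gene. Levels are given as UMIs per 1000000 UMIs of a class in a library (CPM), and they were not compared between genes. Classes were compared on UMI sums with the quasi-likelihood test of edgeR. Sums were scaled by the TMM method, so that the typical gene stays near 0, and p-values were adjusted by Benjamini-Hochberg over all genes tested. With a threshold of 0.05, 6 of 9 members tested were higher in alpha than in beta cells, a direction called for 31.3% of all genes. Against delta cells 6 of 8 were higher, where 25% of all genes were. Against Ppy-rich cells 4 of 8 were higher beside 19.4% of all genes, and against endothelial-like cells 8 of 10 beside 28.7%. Mesenchymal-like cells were higher for 9 of 10 members beside 18.5% of all genes, and macrophage-like cells for 7 of 10 beside 23.5%. These shares of all genes belong to the main fits. They were not taken for the alternatives below, whose counts are therefore no result about the members. Under other scalings, with mixed cells kept or with 1 library left out, the count ran from 5 to 8 against alpha cells and from 4 to 7 against delta cells.

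**Figure D1:**
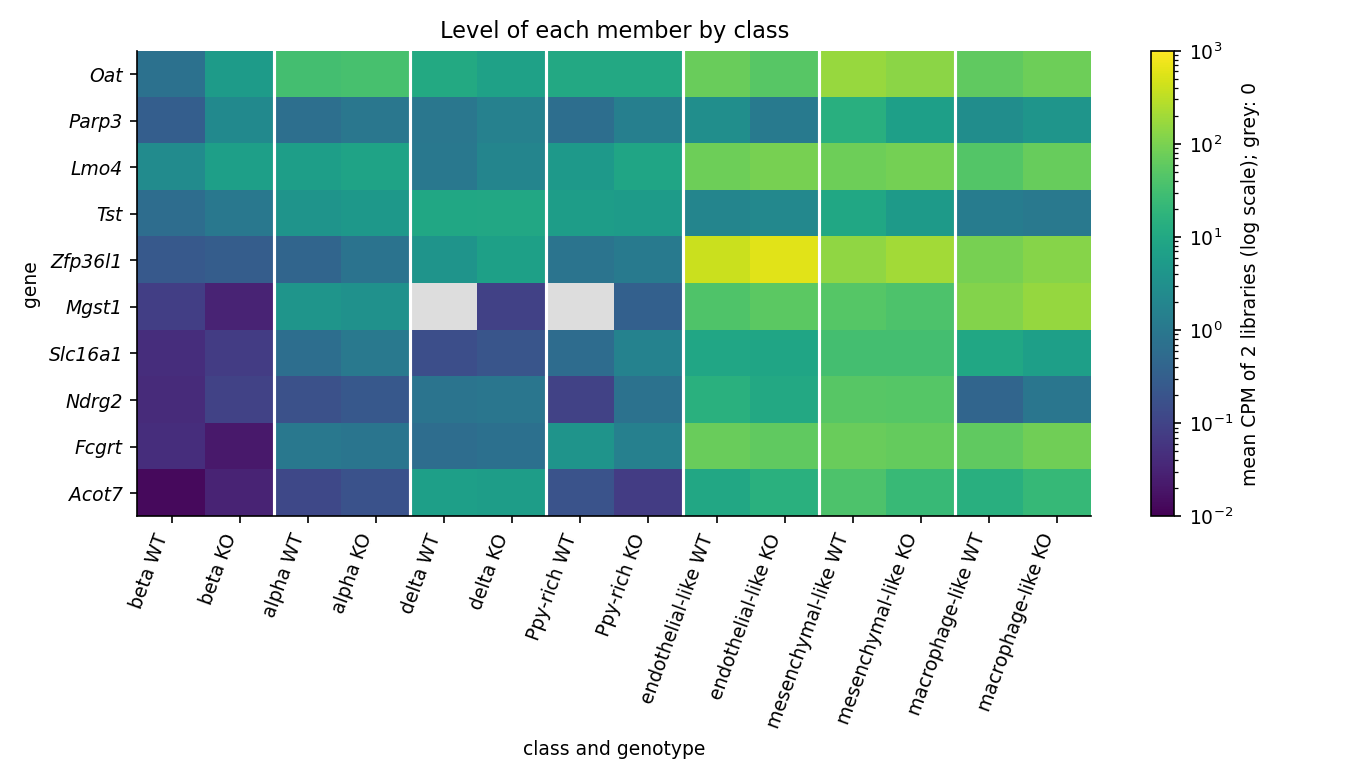
Mean level of each gene (rows) in each cell class and genotype (columns), as the mean CPM of 2 libraries on a log colour scale, with grey where both libraries held 0 UMIs. The beta columns are the darkest for most genes, Lmo4 is lower in delta than in beta cells, and the Oat and Parp3 boxes are brighter in knockout than in wild type beta cells.

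Oat encodes ornithine aminotransferase, a mitochondrial enzyme that links ornithine to proline and glutamate. It lies on the minus strand of chromosome 7 (GRCm38, chr7:132557478-132576398, ENSMUSG00000030934). Wild type beta cells held 0.931 and 0.509 CPM, from 165 and 97 UMIs. Alpha cells of the same libraries held 29.7 and 33.3 CPM, delta cells 10.8 and 10.5, and Ppy-rich cells 10.3 and 10.9. Endothelial-like cells reached 63.6 and 80.0 CPM, macrophage-like cells 44.5 and 73.2, and mesenchymal-like cells 199 and 137. Beta cells were thus lowest in both libraries, delta and Ppy-rich cells stood close to each other, and mesenchymal-like cells were highest. The alpha to beta difference was 4.53 ± 0.136 on the log2 scale (SE, n = 2 libraries a genotype), or 23.2-fold, at an adjusted p of 2.6e-22 (edgeR).

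Parp3 encodes an ADP-ribosyltransferase that takes part in the repair of DNA breaks, and lies on the minus strand of chromosome 9 (chr9:106470322-106476949, ENSMUSG00000023249). It stood at 0.327 and 0.310 CPM in wild type beta cells, at 0.557 and 0.795 in alpha cells and at 1.08 and 0.849 in delta cells. Once the weight of insulin in beta cells was scaled out, the alpha to beta difference was 0.15 (adjusted p = 0.756, edgeR) and the delta to beta difference 0.22 (adjusted p = 0.719). Parp3 therefore did not differ past the threshold between wild type beta cells and these other endocrine cells. Mesenchymal-like cells, at 14.9 and 13.9 CPM, were higher by 3.81 ± 0.837 on the log2 scale (adjusted p = 6.1e-05), from 6 and 5 UMIs.

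Slc16a1, the lactate and pyruvate carrier described above (chr3:104638668-104658462, plus strand, ENSMUSG00000032902), was almost silent in wild type beta cells. Their 3704 and 3659 cells held 6 and 11 UMIs, or 0.0339 and 0.0577 CPM. Alpha cells held 0.557 and 0.742 CPM, endothelial-like cells 9.28 and 9.23, and mesenchymal-like cells 27.4 and 36.2. Alpha cells were 7.30-fold higher than beta cells and mesenchymal-like cells 210-fold higher (adjusted p of 3.7e-05 and 3.4e-12, edgeR). In Ppy-rich cells the call (log2 difference 3.25) rested on the second library, with 6 UMIs against 0 in the first, and the sign turned without it (-4.67). In delta cells each library held 1 UMI and the gene was not tested.

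Acot7 encodes a thioesterase that splits long-chain acyl-CoA and is abundant in neurons (chr4:152178134-152271855, plus strand, ENSMUSG00000028937). It gave 2 and 3 UMIs in all wild type beta cells. The much smaller delta class gave 34 and 51 UMIs, or 6.15 and 7.21 CPM against 0.0113 and 0.0157 in beta cells. Alpha cells, at 0.186 and 0.0530 CPM, were above beta cells in both libraries. This rested on only 4 and 1 alpha UMIs, and the gene was not tested between these 2 classes. Among endocrine cells Acot7 therefore marked delta cells, with a fitted delta to beta difference of 7.44 ± 0.455 (log2, adjusted p = 1.2e-12, edgeR), from so few beta UMIs that its size is uncertain.

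Ndrg2, a stress-responsive member of the NDRG family that is abundant in glia (chr14:51905271-51914158, minus strand, ENSMUSG00000004558), gave 9 and 6 UMIs in wild type beta cells. Its level there was 0.0508 and 0.0315 CPM, against 1.08 and 0.566 in delta cells and 67.2 and 33.4 in mesenchymal-like cells. Macrophage-like cells had 0 and 1 UMI, and alpha cells 4 and 3, and neither differed from beta cells past the threshold (adjusted p of 0.501 and 0.229, edgeR). The delta to beta difference of 2.91 ± 0.767 (adjusted p = 0.00249) was lost without the first wild type library (adjusted p = 0.0915).

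Fcgrt encodes the large chain of the neonatal Fc receptor, which recycles antibodies and albumin (chr7:45092990-45103851, minus strand, ENSMUSG00000003420). Beta cells of the wild type held 5 and 12 UMIs, or 0.0282 and 0.0630 CPM. Macrophage-like cells held 62.8 and 58.1 CPM, endothelial-like cells 60.3 and 81.9, and mesenchymal-like cells 87.1 and 55.7. These 3 classes overlapped in level, and all were far above alpha cells, at 1.30 and 0.742 CPM, and Ppy-rich cells, at 4.68 and 3.10. All 6 class comparisons passed the threshold in wild type libraries. The one with delta cells (2.34 ± 0.840, adjusted p = 0.0217, edgeR) passed only with both wild type libraries in the fit. With 1 library left out that difference ran from 2.05 to 2.88, and it fell to 0.73 in another alternative. A single cell with 6 of 6 ductal markers held 6 of the 12 beta UMIs of the second wild type library.

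Mgst1 encodes a microsomal glutathione transferase (chr6:138140316-138156755, plus strand, ENSMUSG00000008540). It stood at 0.0733 and 0.0997 CPM in wild type beta cells and at 4.74 and 3.23 CPM in alpha cells, a log2 difference of 4.56 ± 0.308 (adjusted p = 9.5e-14, edgeR). Delta cells and Ppy-rich cells held 0 UMIs in both wild type libraries, so within the endocrine cells Mgst1 was found mainly in alpha cells. Macrophage-like cells were highest, at 140 and 92.6 CPM. Most of its UMIs in beta cells came from a single cell of each library, as described with the genotype comparison, and the alpha to beta difference was 7.44 without such cells.

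Zfp36l1 encodes an RNA-binding protein that speeds the decay of AU-rich messenger RNAs (chr12:80107754-80113013, minus strand, ENSMUSG00000021127). It gave 0.169 and 0.325 CPM in wild type beta cells, 0.604 and 0.265 in alpha cells and 3.62 and 4.10 in delta cells. The levels of alpha and beta cells overlapped, with a log2 difference of -0.04 (adjusted p = 0.944, edgeR). Endothelial-like cells reached 433 and 356 CPM, 446-fold above beta cells after scaling (log2 8.80 ± 0.161, adjusted p = 3.6e-37). A single cell rich in ductal markers held 37 of the 62 beta UMIs of the second wild type library. The endothelial to beta difference was 9.54 without that library, 8.23 without the first, and 9.73 without beta cells that held at least 4 ductal markers. Without those cells 23 of 30 and 25 of 62 beta UMIs remained, so the overlap of alpha and beta levels rested in part on them.

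Tst encodes thiosulfate sulfurtransferase, or rhodanese, a mitochondrial enzyme of sulfide and cyanide detoxification (chr15:78399556-78405907, minus strand, ENSMUSG00000044986). Its levels in alpha, delta and Ppy-rich cells were above those in endothelial-like and macrophage-like cells in both wild type libraries, while mesenchymal-like cells spread from 2.49 to 16.7 CPM on 1 and 6 UMIs. Delta cells held 9.58 and 9.62 CPM, Ppy-rich cells 7.17 and 4.85, alpha cells 4.09 and 3.66, and beta cells 0.638 and 0.567. Beta cells did not differ past the threshold from endothelial-like cells, at 1.99 and 1.85 CPM (log2 difference -0.14, adjusted p = 0.876, edgeR), or from macrophage-like cells (-0.23, adjusted p = 0.867), while delta cells were 6.19-fold higher (adjusted p = 2.1e-10).

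Lmo4 encodes a LIM-only protein that joins transcription factors into complexes (chr3:144188530-144205220, minus strand, ENSMUSG00000028266), and it was the member least like a silent gene. Wild type beta cells held 2.32 and 2.77 CPM, from 411 and 527 UMIs, and alpha cells 6.04 and 6.78. After scaling, alpha cells were 1.33-fold higher (log2 0.41 ± 0.122, adjusted p = 0.00460, edgeR), a call lost without the first wild type library (adjusted p = 0.115) or with the hormone genes left out (0.0976). Delta cells were lower than beta cells, at 0.723 and 1.27 CPM, by 6.46-fold (log2 -2.69 ± 0.292, adjusted p = 3.2e-08). Lmo4 was the 1 member of 8 called lower in delta than in beta cells of the wild type, beside 29.5% of all genes.

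RNA released from broken cells can give UMIs in cells that do not express a gene. The insulin share of macrophage-like cells, over that of the whole library, gave an estimate of such RNA. It was 1.20% and 1.29% of the UMIs of the wild type libraries and 0.588% and 0.526% of those of the knockouts. Insulin took 0.667%, 0.773%, 0.215% and 0.178% of UMIs in endothelial-like cells, in the order wild type 1 and 2 and knockout 1 and 2. In macrophage-like cells it took 0.677%, 0.741%, 0.175% and 0.177%. The estimate is therefore no strict upper limit. At this estimate free RNA could supply 63.3%, 29.3%, 77.4% and 67.8% of the Fcgrt level of beta cells, in the order wild type 1 and 2 and knockout 1 and 2. For Acot7 the shares were 66.0%, 45.8%, 15.8% and 28.1%. For Oat they were 7.5%, 13.5%, 1.20% and 1.34%. For Mgst1 they were 37.6%, 18.8%, 58.9% and 90.6%, and for Zfp36l1 37.5%, 17.2%, 35.9% and 31.2%. Fcgrt, Acot7, Mgst1 and Zfp36l1 thus had a larger part of their beta level within reach of this background than Oat.

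In beta cells of the Sel1L knockout 2 of the 10 genes rose. Oat and Parp3 each rose about 4-fold relative to the typical gene, and Lmo4, Tst, Slc16a1, Ndrg2 and Zfp36l1 did not pass the test. Of the 8 members with enough UMIs for the test, 2 were called higher beside 20.8% of all 14817 genes tested, and 1 was called lower beside 21.7%. Shares this close to the background are no result about the list as a whole. The median log2 change was 0.11 over the 8 members and 0.00 over all genes. Acot7, with 2, 3, 4 and 2 UMIs in the 4 libraries, and Fcgrt, with 5, 12, 2 and 2, were below the filter on low counts. In such sums, more expressing cells and more RNA per cell cannot be told apart.

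Oat gave 165 and 97 UMIs in wild type, against 757 and 345 in knockout beta cells, although the knockout libraries had fewer beta cells. Per cell this was 0.0445 and 0.0265 UMIs against 0.310 and 0.250. Per 1000000 UMIs outside the hormone genes it was 3.46 and 1.96 against 13.4 and 9.72. Both knockout libraries were above both wild type libraries on each scale. The change was 2.09 ± 0.259 on the log2 scale (SE, n = 2 against 2), or 4.24-fold, with an adjusted p of 0.00106 in the edgeR test over all genes. The size, though not the call, depended on the wild type libraries: 2.53 without the first and 1.75 without the second. Oat overlaps Fgfr2 on the same strand in the annotation, and Fgfr2 held 6 to 14 UMIs in the beta cells of each library.

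Parp3 gave 58 and 59 UMIs in wild type, against 274 and 167 in knockout beta cells. Per cell this was 0.0157 and 0.0161 UMIs against 0.112 and 0.121, so libraries of a genotype lay close together and the genotypes far apart. The change was 1.97 ± 0.163 (log2), or 3.91-fold, with an adjusted p of 2.4e-04 by the same test. The gene overlaps Rrp9, which lies on the opposite strand. Rrp9 stood at 13.8 and 15.4 UMIs per 1000000 outside hormone genes in wild type, against 10.8 and 10.6 in knockout beta cells.

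The bases just upstream of both genes that rose are shown to let their promoters be compared. They are the 250 bases before the RefSeq start site (GRCm38.p6), read 5′ to 3′ on the strand of the gene, with CCAAT boxes on either strand in capitals. The Oat window is chr7:132576399-132576648 and the Parp3 window chr9:106476950-106477199, both on the minus strand.
Oat: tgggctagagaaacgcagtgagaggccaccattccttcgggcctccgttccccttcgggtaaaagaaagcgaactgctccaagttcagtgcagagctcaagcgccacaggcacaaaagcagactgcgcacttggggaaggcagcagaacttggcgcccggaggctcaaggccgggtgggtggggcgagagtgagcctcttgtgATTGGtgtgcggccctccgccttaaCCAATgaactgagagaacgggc
Parp3: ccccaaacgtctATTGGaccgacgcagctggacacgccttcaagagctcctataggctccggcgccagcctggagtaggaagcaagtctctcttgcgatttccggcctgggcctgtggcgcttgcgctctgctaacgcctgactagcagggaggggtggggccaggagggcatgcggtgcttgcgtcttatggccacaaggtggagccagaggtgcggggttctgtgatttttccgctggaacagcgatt

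Oat holds CCAAT on its own strand with the first base at position -22 from the start and on the other strand at -47, whereas Parp3 holds a single copy at -238 on the other strand. Among the 27025 RefSeq windows of the same 250 bases before a start site, 34.5% hold CCAAT, and 3 of the 9 members with a window do. The ER stress elements ERSE and ERSE-II, each a CCAAT or ATTGG next to CCACG at a fixed spacing, the site TGACGTGG bound by XBP1 and ATF6, the cAMP element TGACGTCA and the ATF4 element TGATGNAA were searched on both strands in the same windows. These letters were found in 0 of the 9 member windows, and in 0.122%, 0.0333%, 0.503%, 1.62% and 3.53% of all windows in that order. A match or its absence is a description of the letters alone.

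**Figure D2:**
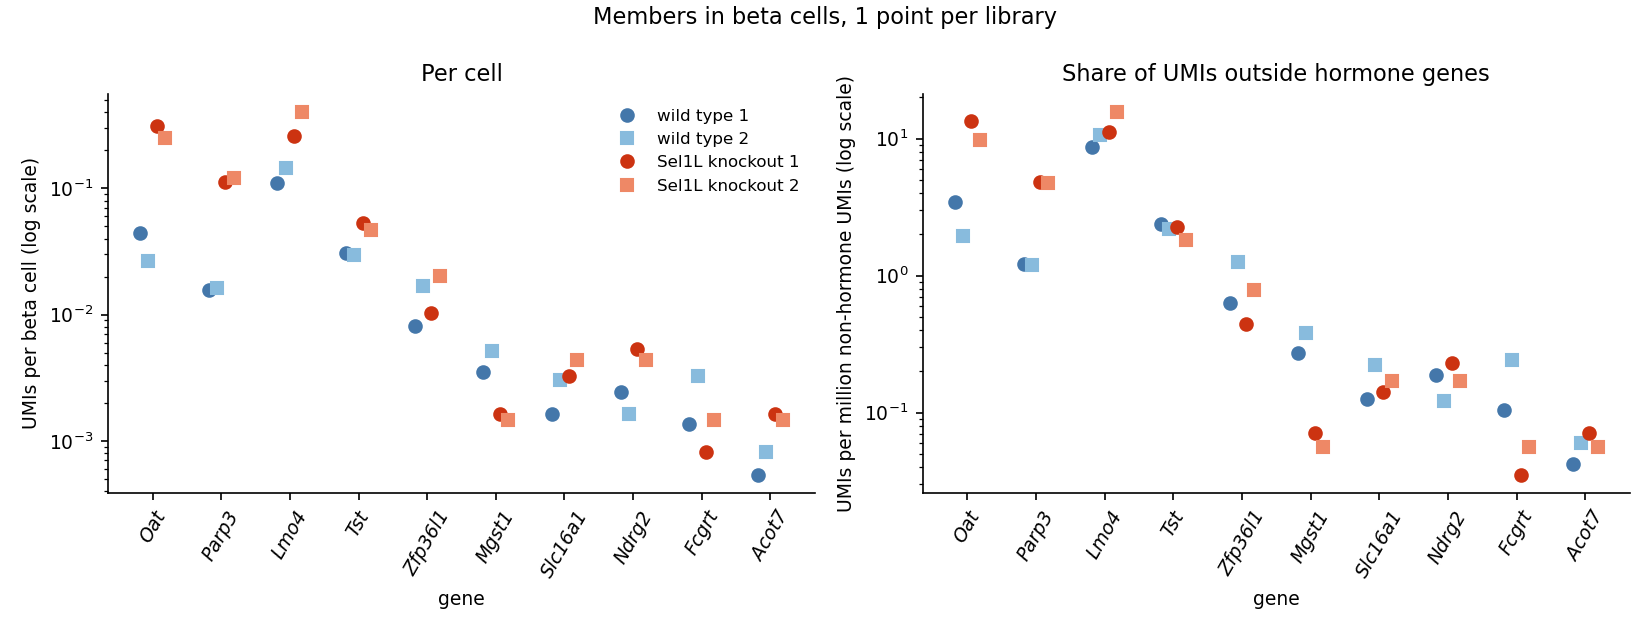
Level of each gene in beta cells of each library, per cell (left) and per 1000000 UMIs outside the hormone genes (right), both on log axes with 1 point per library. Oat and Parp3 of both knockout libraries lie above both wild type libraries in both panels, whereas the Tst points separate on the left and overlap on the right.

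Lmo4 gave 0.111 and 0.144 UMIs per cell in wild type, against 0.258 and 0.404 in knockout beta cells, and 8.61 and 10.6 against 11.1 and 15.7 per 1000000 UMIs outside hormone genes. The genotypes did not overlap on either scale, but the knockout libraries differed from each other by more than the second wild type library did from the first knockout library on the latter. The change of 0.45 ± 0.185 (log2) did not pass the threshold (adjusted p = 0.0909, edgeR). It did pass with the replicate number as a block (0.45, adjusted p = 0.00278) and with all cells thinned to 10000 UMIs (0.71, adjusted p = 0.0298). With 1 library left out the change ran from 0.20 to 0.70, the latter without the first knockout library. Over all 20 alternatives it ran from 0.10 to 1.37, the latter on the scale of UMIs per cell.

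Tst stood at 0.0305 and 0.0295 UMIs per cell in wild type, against 0.0528 and 0.0471 in knockout beta cells. Outside the hormone genes it was 2.37 and 2.18 against 2.28 and 1.83 per 1000000, where the genotypes overlapped. The change relative to the typical gene was -0.15 ± 0.190 (adjusted p = 0.545, edgeR). Slc16a1 stayed near the limit of detection, with 6, 11, 8 and 6 UMIs and a change of -0.21 ± 0.547 (adjusted p = 0.779). Ndrg2 gave 9, 6, 13 and 6 UMIs and a change of 0.38 ± 0.507 (adjusted p = 0.574). At these counts only large changes of Slc16a1 and Ndrg2 could have been seen.

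Mgst1 was the 1 member called lower, with 13 and 19 UMIs in wild type, against 4 and 2 in knockout beta cells (log2 -2.31 ± 0.548, adjusted p = 0.0140, edgeR). A single cell held 10 of the 13 UMIs in the first wild type library, and another held 18 of the 19 in the second. These 2 cells passed the insulin rule, with 49.8% and 36.4% of UMIs on insulin, and carried 5 and 6 of 6 ductal markers, among them 938 and 1243 UMIs of Spp1, whose median in beta cells was 0. Without beta cells that held at least 4 ductal markers, an alternative added after the data were seen, the Mgst1 counts were 3, 1, 4 and 2, the gene fell below the filter, and no member was called lower. That test (edgeR) called 3223 of all 14809 genes lower, or 21.8%, and 7624 genes had an unadjusted p under 0.05.

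Zfp36l1 rested on the same cells in part: they held 7 of its 30 and 37 of its 62 wild type UMIs. Knockout beta cells held 25 and 28. The change was -0.68 ± 0.442 (adjusted p = 0.251, edgeR) with these cells and 0.25 ± 0.372 (adjusted p = 0.617) without them, so its direction turned. Oat and Parp3 kept their calls without the same cells, at 2.12 and 1.99.

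The other genes depended on the scale. As a share of all UMIs the median gene was higher by 0.91 on the log2 scale, and 85.4% of all genes were called higher. On that scale 5 of the 8 members tested were called higher: Oat by 2.99, Parp3 by 2.87, Lmo4 by 1.36, Ndrg2 by 1.28 and Tst by 0.75. Per cell the values were 2.98, 2.87, 1.37, 1.26 and 0.74, and 85.1% of all genes were called. Mgst1 was called lower on both scales (-1.42, adjusted p = 0.0459, and -1.45, adjusted p = 0.0445), beside 2.12% and 2.27% of all genes, with most of its wild type UMIs in the 2 cells described above.

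**Figure D3:**
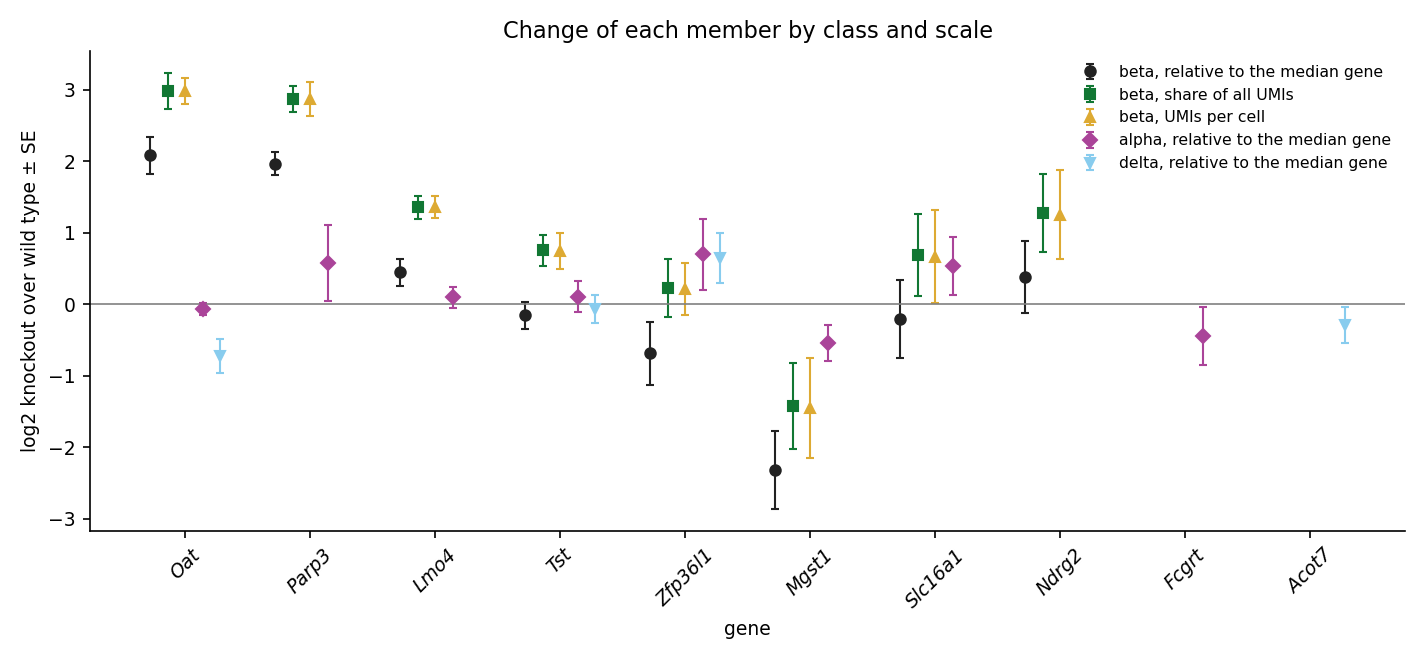
Log2 change from wild type to knockout for each gene (points) with its SE (bars), in beta cells on 3 scales and in alpha and delta cells relative to the typical gene. Oat and Parp3 lie near 2 relative to the typical gene and near 3 on the other scales in beta cells, while the alpha and delta points of Oat lie at -0.07 and -0.72.

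Markers of other cell types were summed in the beta cells as a check of purity, with cells that held 4 or more endothelial, mesenchymal, macrophage or Schwann cell markers already removed. The 8 endothelial markers summed to 2.95 and 3.30 CPM in wild type, against 8.19 and 8.03 in knockout beta cells, with 0 of them undetected in each library. The 7 Schwann cell markers summed to 3.37 and 2.80 against 8.97 and 8.82 CPM, with 0, 3, 1 and 1 undetected. The 8 mesenchymal markers summed to 0.598 and 0.651 against 0.888 and 0.909 CPM. Schwann-like cells, 6 to 17 a library and too few to be tested, held Oat at 145 and 84.1 CPM in wild type, against 154 and 126 in knockout libraries, and 0 to 2 Parp3 UMIs. Ductal markers summed to 216 and 215 against 278 and 249 CPM, and macrophage markers to 24.5 and 19.7 against 22.6 and 20.5. Alpha markers summed to 562 and 529 against 527 and 320 CPM, delta markers to 120 and 97.2 against 145 and 112, and Ppy stood at 1444 and 1384 against 10353 and 6339. Endothelial, Schwann cell, mesenchymal and ductal markers and Ppy were thus higher in both knockout libraries. The CPM share the upward shift of the median gene, and their part in the rise of Oat and Parp3 was not tested. With mixed cells kept, Oat changed by 1.85 and Parp3 by 1.96, and both passed the threshold.

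The rise was also present among beta cells of matched insulin content. Among cells with 50 to 70% of UMIs on insulin, which numbered 2218 and 2205 in wild type, against 445 and 379 in knockout, Oat stood at 0.0340 and 0.0183 UMIs per 10000 outside hormone genes in wild type. In knockout cells of that range it stood at 0.105 and 0.0739. Parp3 stood at 0.0111 and 0.0117 against 0.0428 and 0.0424. Both knockout libraries thus exceeded both wild type libraries within this range, where insulin shares may still differ between genotypes. A fit on these cells alone gave 1.82 for Oat (adjusted p = 0.00215, edgeR) and 1.93 for Parp3 (adjusted p = 7.2e-04).

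Within the knockout, Oat was higher in cells with less insulin. At insulin shares of 10 to 30% it stood at 0.150 and 0.107 UMIs per 10000 outside hormone genes in both knockout libraries, against the 0.105 and 0.0739 just given for 50 to 70%. Parp3 showed no common order, with 0.0529 and 0.0337 at 10 to 30% and 0.0483 and 0.0529 at 30 to 50%. In wild type, the few cells at 30 to 50% insulin, 155 and 54, had 0.0704 and 0.0859 for Oat, from 11 and 7 UMIs. In the second library 5 of those 7 UMIs lay in the single cell with 6 of 6 ductal markers, so that value rests largely on it. The ductal-rich cell of the first library also fell in this range, and the Oat beta UMIs of that library went from 165 to 163 without it. With these cells counted, wild type cells of this range stood above the wild type cells with more insulin. They stood below the knockout cells of the same range, at 0.135 and 0.105. Moving the beta rule to at least 5% or at least 20% insulin left the Oat change at 2.09.

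**Figure D4:**
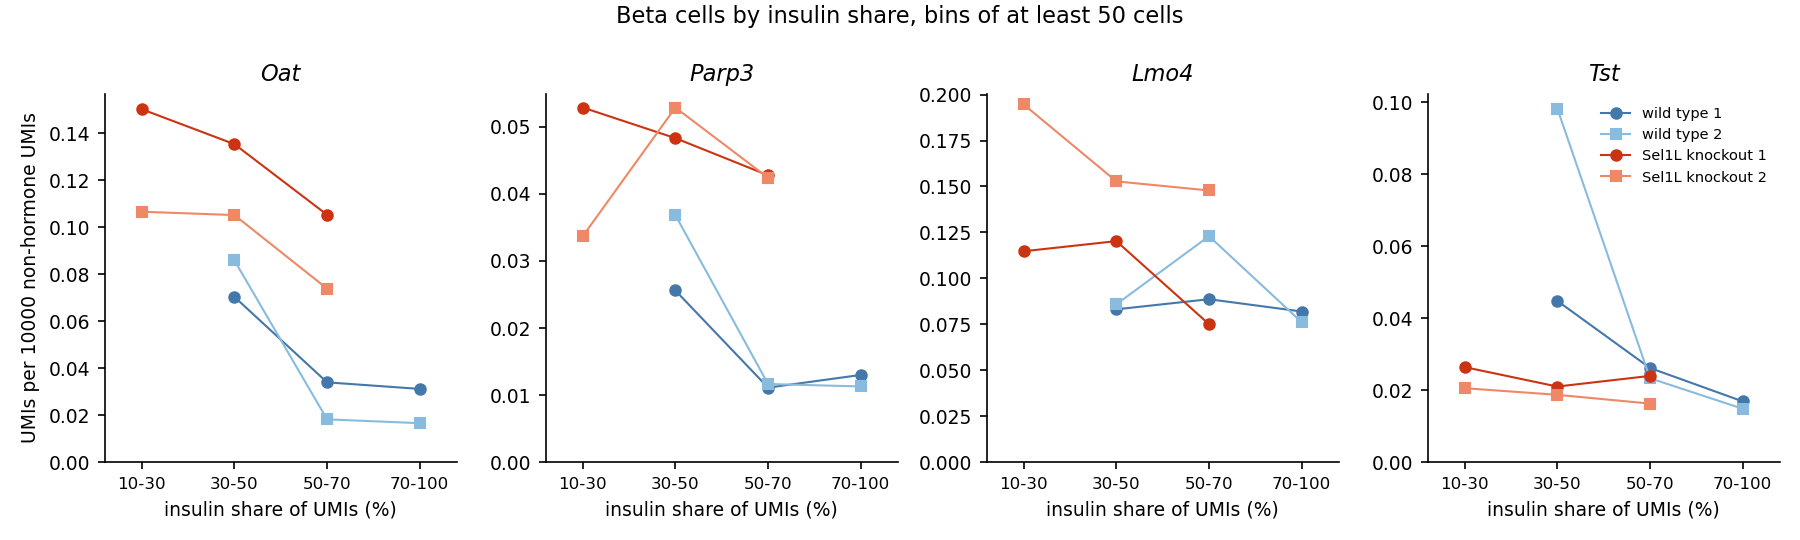
UMIs per 10000 UMIs outside hormone genes for Oat, Parp3, Lmo4 and Tst (panels) in beta cells grouped by the share of UMIs on insulin, with 1 line per library and groups of at least 50 cells. At 50 to 70% insulin both knockout lines lie above both wild type lines for Oat and Parp3, and the lines overlap for Lmo4 and Tst.

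The UMIs were spread over many cells. Oat was seen in 3.86% and 2.27% of wild type and 22.3% and 18.8% of knockout beta cells, and no beta cell held more than 7 UMIs. Parp3 was seen in 1.46% and 1.42% against 8.76% and 9.35%, and Lmo4 in 8.15% and 10.9% against 17.6% and 24.7%. The knockout libraries were thus above the wild type libraries in the share of cells for all 3 genes, with the median beta cell still at 0 for each.

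Depth outside hormone genes differed between genotypes, so cells were also thinned to 2000 such UMIs. Oat was then seen in 0.624% and 0.384% of wild type and 2.44% and 2.06% of knockout beta cells, against 8.19%, 10.0%, 11.2% and 10.2% of alpha cells in the order wild type 1 and 2 and knockout 1 and 2. Knockout beta cells therefore remained below alpha cells of either genotype. Parp3 was seen in 0.190% and 0.110% against 0.496% and 1.33% of beta cells, shares that rest on few cells at this depth. Lmo4 overlapped between genotypes after thinning, at 1.74% and 1.92% against 1.86% and 2.95%. Thinning left out 9 to 26 beta cells per library.

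**Figure D5:**
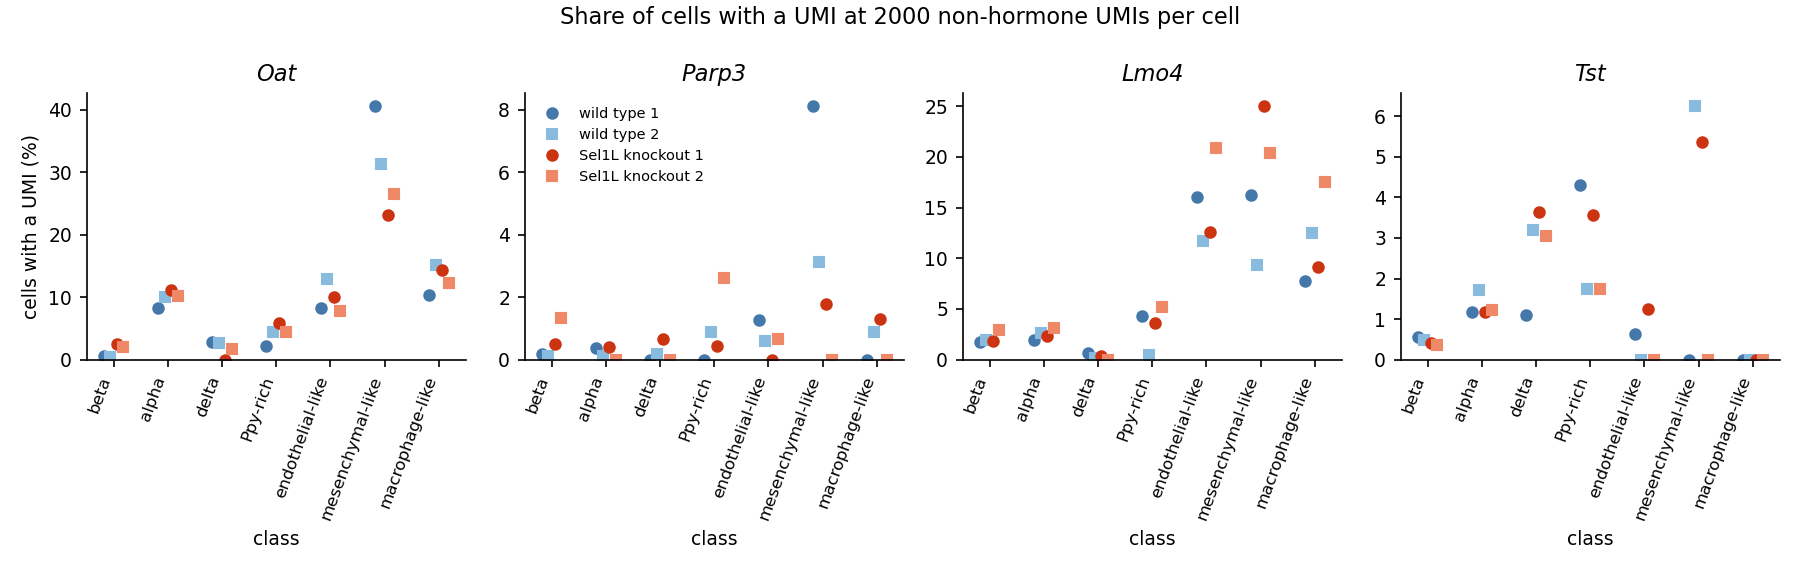
Share of cells with a UMI of Oat, Parp3, Lmo4 and Tst (panels) in each class after every cell was thinned to 2000 UMIs outside hormone genes, with 1 point per library. The knockout beta points of Oat, at 2.44% and 2.06%, lie above the wild type beta points and below all 4 alpha points.

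In alpha cells, where Ins1 is normally silent, 0 of the 8 members tested were called, beside 17% of all 12669 genes (2159 called and 3993 at an unadjusted p under 0.05, edgeR). Oat held 29.7 and 33.3 CPM in wild type, against 33.6 and 36.7 in knockout alpha cells, a change of -0.07. Changes of the others ran from -0.54 for Mgst1 to 0.70 for Zfp36l1. Parp3, at 0.557 and 0.795 against 1.61 and 0.323 CPM, had knockout libraries on both sides of the wild type. With sums divided by cell number in place of TMM, 6 members were called higher in alpha cells, beside 88.1% of all genes.

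In delta cells 0 of 4 members tested were called, beside 8.53% of all 11615 genes (991 called and 2969 at an unadjusted p under 0.05, edgeR). Oat held 10.8 and 10.5 CPM in wild type, against 5.60 and 8.87 in knockout delta cells, lower in both knockout libraries. The change of -0.72 had an adjusted p of 0.0721, and it passed the threshold with no filter on low counts (-0.74, adjusted p = 0.0208), with the replicate number as a block (-0.71, adjusted p = 0.0348) and without the second knockout library (-1.06, adjusted p = 0.0453). Zfp36l1 held 3.62 and 4.10 against 4.30 and 9.55 CPM and did not pass (0.65, adjusted p = 0.270), but did with mixed cells kept (1.03, adjusted p = 0.0282) and on the scale of UMIs per cell (1.33, adjusted p = 1.4e-04). On the latter 2 members, Tst and Zfp36l1, were called higher in delta cells, beside 75.5% of all genes.

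The difference between classes was tested directly, in a fit of both classes with the library as a block. The Oat change in beta cells exceeded that in alpha cells by 2.18 ± 0.185 on the log2 scale (adjusted p = 2.6e-10, edgeR) and that in delta cells by 2.87 ± 0.308 (adjusted p = 2.2e-07). Both kept their sign and passed in all 9 alternatives run for each. The Parp3 change exceeded that in alpha cells by 1.40 ± 0.511 (adjusted p = 0.0409), and the call was lost without the second wild type library (0.185), without the second knockout library (0.177) or with mixed cells kept (0.0700). Against delta cells the Parp3 difference was 1.36 ± 0.617 (adjusted p = 0.139), so a larger rise than in delta cells was not shown for Parp3. Altogether 2 of 9 members were called higher in this comparison with alpha cells, beside 12.8% of all genes, and 1 of 8 with delta cells, beside 9.94%.

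Mgst1 was called lower in the comparison with alpha cells (-1.77 ± 0.668, adjusted p = 0.0486, edgeR), beside 14.6% of all genes. Without the beta cells rich in ductal markers the value turned to 1.11 (adjusted p = 0.431).

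With these changes the order of classes shifted for the genes that rose. The alpha to beta difference of Oat was 4.53 (log2) in wild type and 2.35 ± 0.118 in the knockout, where alpha cells were still 5.11-fold higher. Against delta cells the Oat difference went from 2.57 to -0.30 ± 0.232, and knockout beta and delta cells did not differ past the threshold (adjusted p = 0.277, edgeR). Parp3 became higher in knockout beta cells than in alpha cells by 2.39-fold (adjusted p = 6.4e-04), than in delta cells by 2.20-fold (adjusted p = 0.00880) and than in endothelial-like cells by 4.14-fold (adjusted p = 0.00600). Endothelial-like cells held only 6, 3, 2 and 3 Parp3 UMIs. Of the 9 members tested against alpha cells in the knockout, 6 were called higher in alpha cells and 1, Parp3, lower, beside 33.4% and 34.7% of all genes. Against delta cells 5 of 8 were called higher and 2, Parp3 and Lmo4, lower, beside 26.4% and 30.3%.

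A list of 14 other genes described as kept off in beta cells, among them the lactate dehydrogenase gene Ldha, the hexokinase genes Hk1, Hk2 and Hk3 and the receptor gene Pdgfra, was read in the same fit. Only 8 had enough UMIs to be tested in beta cells, 2 of which were higher and 0 lower, beside 20.8% and 21.7% of all genes, with a median log2 change of 0.55 against 0.00 over all genes. The count higher is close to the background. Cat, the gene of the peroxide-splitting enzyme catalase, stood at 2.16 and 2.70 UMIs per 1000000 outside hormone genes in wild type, against 3.56 and 3.86 in knockout beta cells (log2 0.59 ± 0.182, adjusted p = 0.0377, edgeR). Rest, a repressor of neuronal genes that is itself kept off in beta cells, gave 9 and 9 against 20 and 26 UMIs (1.46 ± 0.490, adjusted p = 0.0488). Ldha, with 20, 28, 22 and 14 UMIs, had a value of -0.35 and was not called (adjusted p = 0.441).

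Relatives and partners of the members, 36 genes of which 30 were tested, included 5 called higher, 9 called lower and 16 not called, with a median of -0.03, beside the same 20.8% higher and 21.7% lower of all genes. Among the enzymes of the ornithine and proline pathway around Oat, Pycr1, which makes proline, rose by 0.58 (53.9 and 56.3 against 80.4 and 86.9 UMIs per 1000000 outside hormone genes, adjusted p = 9.1e-04, edgeR). Prodh, which breaks proline down, rose by 1.32 from 21 and 31 to 69 and 54 UMIs (adjusted p = 0.0114), and Aldh18a1, which makes the shared intermediate, fell by 0.21 (adjusted p = 0.0331). Prodh, Aldh18a1, Acot1, Acot2, Lmo2 and Ldha are named after their values were seen. Of the scaffold and relatives of Lmo4, Ldb1 rose by 0.63 (adjusted p = 4.4e-04) and Lmo1 by 1.20 (adjusted p = 1.9e-04), from 38.0 and 33.7 to 90.3 and 76.8, whereas Lmo2 did not pass (0.30, adjusted p = 0.481).

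B2m, the light chain that Fcgrt needs to reach the cell surface, fell by 1.67 in beta cells, from 44.6 and 43.0 to 11.7 and 16.4 UMIs per 1000000 outside hormone genes (adjusted p = 2.6e-04, edgeR). Bsg, the chaperone that carries the Slc16a1 protein to the membrane, fell by 0.33 (adjusted p = 0.0178) and stayed abundant at 684 to 911. Of the relatives of Acot7, Acot13 fell by 1.08 (adjusted p = 1.3e-04), and Acot1 rose by 1.69 from 11 and 11 to 47 and 23 UMIs (adjusted p = 0.00726). Acot1 has the near-identical copy Acot2, which did not pass (0.14), and reads could be split between them. Ndrg4 fell by 0.72 (adjusted p = 0.00136), and Mpst, the neighbour and relative of Tst, did not pass (0.06, adjusted p = 0.592). The members' families therefore did not share 1 direction.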

How the data were processed

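Islet cells of 4 libraries, 2 per genotype, were analysed from the deposited UMI counts per gene and cell. The authors made these counts with Cell Ranger 3.0.0 and the mm10 genome and used Seurat 2.3.4, per the submitters' processing notes; the deposited cells were already filtered, with at least 501 genes and at most 9.96% mitochondrial UMIs each, and no further cells were removed for quality. Doublets were not called by a caller: cells that met 2 classes by Gcg, Sst, insulin or the non-endocrine markers (not by Ppy), 33 to 84 a library, were left out as mixed. Total counts per library ran from 99156230 to 228515309.

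Counts were summed per class and library and fitted over all genes with edgeR 4.0.16 (genes kept by filterByExpr, TMM scaling, quasi-likelihood test) under R 4.3.3, and called at a Benjamini-Hochberg adjusted p below 0.05, in classes of at least 20 cells in every library, which left out Schwann-like cells. Fits of 2 classes had the library as a block and class terms within each genotype. Shares of cells and free RNA estimates cover counting error only. The classes follow hormone shares and marker lists; the Ppy-rich class rests on 1 marker. Alternatives were RLE, library size or cell number scaling, hormone genes left out, DESeq2 1.42.0, limma-voom (limma 3.58.1), other filters, other class rules, mixed cells kept, cells over 2 times the median UMIs left out, thinning to 10000 UMIs, each library left out and a block for the replicate number. The scripts were tested on simulated data. Python 3.11.15, NumPy 2.4.6, pandas 2.3.3, SciPy 1.17.1 and matplotlib 3.10.9 were used. Coordinates are from GENCODE on GRCm38, matched by symbol for all 10 members, and upstream sequences from RefSeq on GRCm38.p6 for 9 of 10 members.

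Genes were named by rule: the 10 members, up to 4 called genes of the list kept off in beta cells and up to 6 called relatives or partners of smallest p in beta cells, plus B2m, Bsg and Mpst. Genes given with values outside this rule are said to be, apart from the genes that overlap Oat and Parp3. The members and lists were chosen with earlier results of these data known.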

Additional observations from a re-analysis of the deposited data

Results flagged for a closer look

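For 4 results the effect of the knockout differed between cell classes in a test of that difference itself (edgeR, quasi-likelihood, Benjamini-Hochberg adjustment over all genes). The Oat change in beta cells was above that in alpha cells by 2.18 on the log2 scale (adjusted p = 2.6e-10) and above that in delta cells by 2.87 (adjusted p = 2.2e-07), and beta cells rose in both knockout libraries. The Parp3 change in beta cells was above that in alpha cells by 1.40 (adjusted p = 0.0409), beside 3 Parp3 UMIs in alpha cells of the second knockout library and 36 in the first. That call was lost without the second wild type library (adjusted p = 0.185), without the second knockout library (0.177) and with mixed cells kept (0.0700). The Mgst1 change in beta cells was below that in alpha cells by a log2 difference of -1.77 (adjusted p = 0.0486), with 10 of its 13 and 18 of its 19 beta UMIs in a single cell of each wild type library. It turned to 1.11 (adjusted p = 0.431) without beta cells rich in ductal markers. Of all genes, 12.8% were called higher and 14.6% lower in the beta and alpha comparison, and 9.94% higher in the beta and delta comparison.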

How the results depend on the processing

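The Oat and Parp3 calls in beta cells kept their direction and passed the threshold in all 20 alternatives, with log2 changes of 1.75 to 2.99 and 1.82 to 2.87. With library size only, 5 members were called higher in beta cells, beside 85.4% of all genes, and Slc16a1, Tst and Zfp36l1 stood at 0.69, 0.75 and 0.23. With UMIs per cell 5 were called higher, beside 85.1% of all genes, and Slc16a1, Tst and Zfp36l1 stood at 0.67, 0.74 and 0.22. The count of members lower in beta cells went from 1 to 0 with DESeq2, with a mean of at least 20 UMIs, at 50 to 70% insulin, with cells thinned to 10000 UMIs and without beta cells holding 4 ductal markers, where Zfp36l1 stood at 0.25. In those settings 2743 of 14817, 3029 of 13568, 2300 of 13594, 2163 of 12864 and 3223 of 14809 genes were called lower, in that order. The count of members was 2 with mixed cells kept, beside 3054 of all 15216 genes. There Slc16a1 stood at 0.11 and Zfp36l1 at 0.064. In alpha cells, Oat stood at 0.15 with library size only. With UMIs per cell 6 members were called higher there, beside 88.1% of all genes, and Oat, Mgst1 and Fcgrt stood at 0.71, 0.24 and 0.33. In delta cells, Tst stood at 0.081 with library size only. With UMIs per cell 2 members were called higher in delta cells, beside 75.5% of all genes with a median of 0.68, and Acot7 and Tst stood at 0.38 and 0.61. With mixed cells kept 1 was called higher in delta cells, beside 282 of all 11697 genes. With no filter 1 was called lower, beside 934 of all 16789 genes. At a Gcg or Sst share of at least 10% Acot7 stood at 0.27.

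For the beta and alpha difference, 0 members were called lower with library size only (Tst 0.48), mixed cells kept, UMIs per cell, hormone genes left out or beta cells with ductal markers left out (Mgst1 1.11), and 1 was called higher with mixed cells kept. For the beta and delta difference, 3 were called higher with library size only (Tst 0.68, Lmo4 0.49), Lmo4 was 0.15 with mixed cells kept and Tst 0.14 with UMIs per cell. Shares of all genes called were not taken for these alternatives of the class difference, so their counts are no result about the members. The cause was not tested in any of these cases, beyond what each setting removes.

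Leaving out each library in turn gave 0 to 1 members lower in beta cells, 0 to 1 lower in delta cells, 1 to 2 higher and 0 to 2 lower for the beta and alpha difference, and 0 to 1 lower for the beta and delta difference. In alpha cells the ranges were -0.16 to 0.015 for Oat, -1.29 to 1.05 for Parp3, -0.35 to 0.31 for Tst and -0.77 to 0.026 for Fcgrt. Beta minus alpha ranged from -0.071 to 0.31 for Ndrg2 and from -0.32 to 0.0072 for Tst. Beta minus delta ranged from -0.57 to 0.027 for Lmo4 and from -0.24 to 0.063 for Tst. Ppy-rich over beta cells ranged from -4.67 to 3.78 for Slc16a1. With 1 library left in a genotype, its spread was taken to be that of the other genotype. Of the single-gene values under other settings, 396 kept direction and call, 23 reversed direction, 17 gained a call and 8 lost it. Of those with a library left out, 285 kept direction and call, 9 reversed direction and the rest changed call.

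Deviations of libraries with equal replicate numbers correlated at 0.00036 in beta, 0.065 in alpha and -0.058 in delta cells. With 2 libraries a genotype this cannot show whether equal numbers were processed as pairs. The block raised the genes called higher and lower from 3077 and 3209 to 3262 and 3353 in beta cells. In alpha cells they went from 873 and 1286 to 1276 and 1646, and in delta cells from 402 and 589 to 637 and 753. With the replicate block 3 members were higher in beta cells, with Lmo4 added (0.45, adjusted p = 0.00278, edgeR), and 1 member was lower in delta cells, Oat (-0.71, adjusted p = 0.0348).

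Depth limits Acot7, Fcgrt, Slc16a1, Ndrg2 and Mgst1, which gave at most 19 UMIs in the beta cells of any library.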
